A study of Rattus norvegicus with 6 samples.

Results

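Enzymes that modify histones and complexes that move nucleosomes were compared between 2 kinds of rat pluripotent cell: embryonic stem (ES) cells, and cells that the labels call flat PS (fPS). A probe set belonged to the group if its only gene symbol in the platform's annotation began with Kdm, Kmt, Kat, Hdac, Sirt, Chd, Cbx or Prmt followed by a number, began with Setd or Smarc, or was Ezh1, Ezh2, Eed or Suz12. This gave 166 probe sets for 94 genes, of 14217 genes and 31042 probe sets in all, and where a gene had several, the probe set of highest mean log2 value over the 6 arrays stood for it. Total RNA of 3 ES and 3 fPS samples, all of the Sprague-Dawley strain, was hybridised to Affymetrix arrays, 1 sample per array. The labels give both groups the same culture: 10 ng/ml human LIF, 3 µM of the GSK3 inhibitor CHIR99021 and 0.5 µM of the MEK inhibitor PD0325901, and maintenance on mitomycin C-treated mouse embryonic fibroblasts with 15% serum. They do not say how the fPS cells were derived, whether a group was 1 line or several, or whether its 3 samples were separate cultures. The p-values rest on the spread among these samples alone, and that spread may be technical. For the fPS samples another label field names embryonic stem cells, so groups follow the sample titles.

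DNA in the nucleus is wound around histone proteins, and chemical marks on the histone tails help to decide which genes can be read. Writers place the marks (lysine methyltransferases, acetyltransferases, arginine methyltransferases), erasers remove them (demethylases, histone deacetylases, sirtuins), readers such as the Cbx proteins bind them, and remodellers of the SWI/SNF, ISWI and CHD families slide or evict nucleosomes with the energy of ATP. In ES cells the Polycomb repressive complexes PRC1 and PRC2 keep developmental regulators silent, and a particular form of SWI/SNF supports self-renewal.

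1 array stood apart for these genes. ES replicate 3 was the highest ES array for 71 of 94 members (75.5%), against 45.7% of all genes. Its median deviation from the gene mean over 6 arrays was 0.42 on the log2 scale for members and 0.053 for all genes, while the other 5 arrays lay between -0.25 and 0.042 for members. ES replicate 3 and fPS replicate 3 also had the highest signal of 8 collagen genes, which mark fibroblasts, with mean log2 values of 7.70 and 7.40 against 5.64 to 6.62 on the other arrays. The summed intensity of all 21 listed fibroblast genes, each of which was measured, ran from 2726 to 4028 on ES and from 3666 to 4163 on fPS arrays. Much of that sum was Timp1, at 2106, 1722 and 590 on ES and at 2080, 2358 and 1404 on fPS arrays. Unlike the collagens, Timp1 was lowest on replicate 3 of each group, so the sum hides part of the collagen spread. None of the 21 passed limma, 7 had a negative log2 change, and the median was 0.29. At an unadjusted limma p under 0.05, Postn (log2 change 1.20), Fbln1 (0.67) and Pdgfra (1.12) were higher and Col5a1 (-0.63) lower in fPS cells, Postn and Fbln1 without overlap. The listed fibroblast transcription factors Twist1, Twist2 and Prrx1 differed in pattern. Twist2 was between 1.34 and 3.21 on every array. Twist1 was at 8.69, 11.56 and 44.15 on ES and at 4.08, 13.56 and 24.97 on fPS arrays. Like the collagen mean, it was highest on replicate 3 of each group. Prrx1 was at 22.33, 3.11 and 9.6 on ES and at 12.78, 1.77 and 1.27 on fPS arrays, highest on replicate 1 of each group. Of 19 pluripotency markers 11 were measured, and their summed intensity was 19357 to 27829 on ES and 17561 to 22961 on fPS arrays. None of the 11 passed limma, and 6 had a negative log2 change, with a median of -0.12. The 2 at an unadjusted limma p under 0.05 were lower without overlap, Sox2 (log2 change -0.97) and Lin28a (-1.30), while Klf5 was higher without overlap (0.32).

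**Figure D1:**
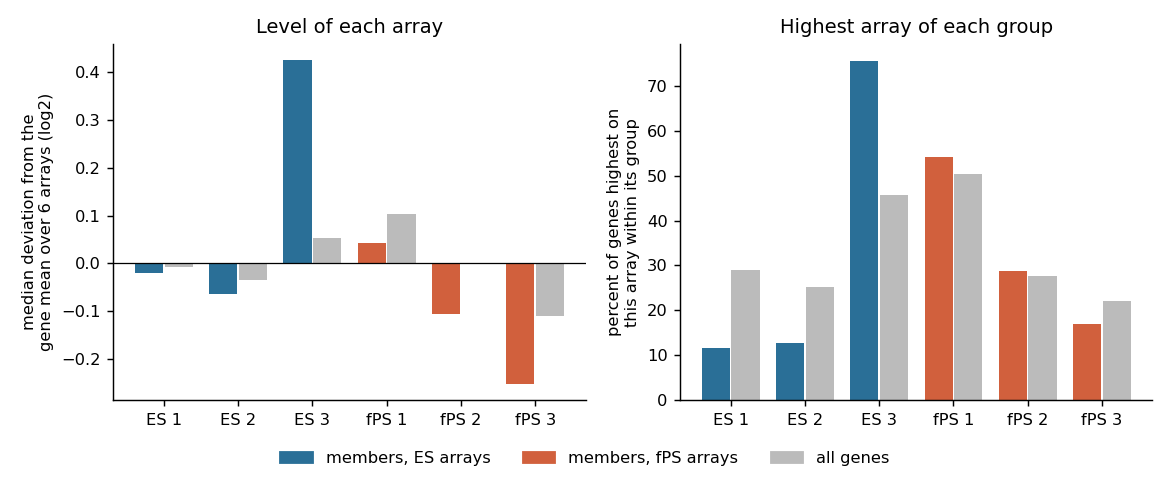
Left, median deviation (log2) of each array from the gene mean over 6 arrays, and right, percent of genes that were highest on that array among the 3 of its group, for the 94 members (coloured) and all 14217 genes (grey). ES replicate 3 held the highest ES value for 75.5% of members and 45.7% of all genes.

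Most members showed small differences between the groups, and 1 of 94 passed the test: the sirtuin Sirt5 fell in fPS cells. The test was limma on log2(intensity + 16), a scale that understates the change of dim probe sets, with p-values adjusted by Benjamini-Hochberg across all 31042 probe sets, and the threshold was 0.05. Over all genes 0.858% passed in either direction, 0.288% lower and 0.57% higher in fPS cells, so 1 of 94 (1.06%) is near that share. At an unadjusted limma p under 0.05 there were 20 members (21.3%, against 17.5% of all genes). Of these, 13 were lower (13.8%, against 8.88%) and 7 higher (7.45%, against 8.59%). In 31 members (33.0%, against 22.6% of all genes) the 3 fPS values did not overlap the 3 ES values, 23 of them lower (24.5%, against 11.3%) and 8 higher (8.51%, against 11.3%).

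The members leaned to lower values in fPS cells, and by median, sign and p much of that lean went with ES replicate 3. The log2 change was negative in 66 of 94 members (70.2%) and in 50.0% of all genes, with a median of -0.17 for members and 0.00 for all genes. The sign counts and medians of single families given below are to be read beside these values. Without ES replicate 3 the median was -0.060, with 53 negative members (56.4%, against 48.7% of all genes), and the members at an unadjusted limma p under 0.05 were 7 lower (7.45%, against 6.85%) and 7 higher (7.45%, against 9.90%). Without fPS replicate 3 they were 7 lower (against 5.30% of all genes) and 6 higher (against 8.70%). The median was then -0.13 beside 0.049 for all genes, a gap of -0.18 like the -0.17 with all arrays. With both of the highest-collagen arrays (replicate 3 of each group) left out the median was 0.0018, beside 0.068 for all genes. With the collagen signal as a covariate it was -0.20. Counted by overlap, the members stayed above all genes on the lower side. Without ES replicate 3, 25 were lower without overlap (26.6%, against 16.2% of all genes) and 17 higher (against 19.9%). Without both highest-collagen arrays 25 were lower (26.6%, against 19.3%) and 28 higher (against 31.2%).

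**Figure D2:**
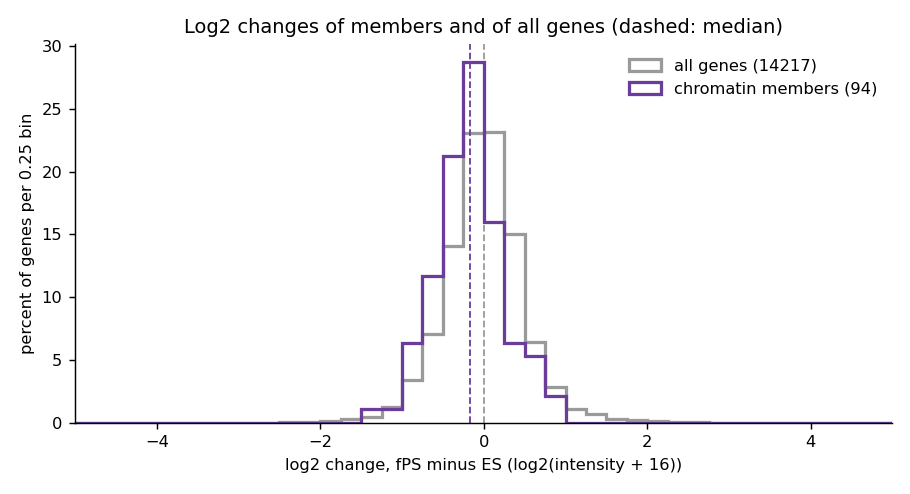
Percent of genes per 0.25 bin of the log2 change (fPS minus ES) for the 94 members and for all 14217 genes, with dashed lines at the medians. The members' median lies at -0.17 and that of all genes at 0.00.

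**Figure D3:**
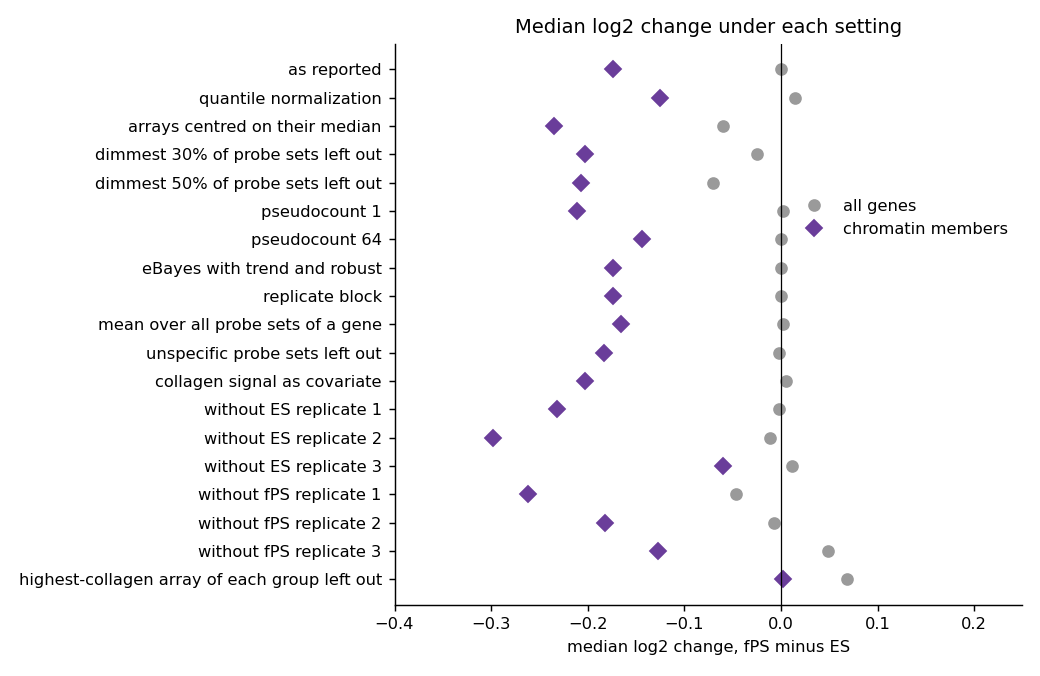
Median log2 change (fPS minus ES) of the members (diamonds) and of all genes (circles) as reported and under each of the 18 alternatives. The members' median lies below that of all genes in each, and comes closest to 0, at 0.0018, without the highest-collagen array of either group.

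Among the erasers, 2 of the 6 sirtuins had a negative and 4 a positive log2 change, and only Sirt5 passed the test. These enzymes consume NAD+, and 3 of the 6 measured, Sirt3, Sirt4 and Sirt5, work in mitochondria on metabolic enzymes rather than on histones. Sirt5, which removes succinyl, malonyl and glutaryl groups, was at intensities of 275, 322 and 310.3 on the ES arrays and of 78.0, 87.1 and 142 on the fPS arrays. All fPS values lay far below all ES values. The mean intensity was 302 ± 24.7 (SD, n = 3) in ES and 102 ± 34.4 in fPS cells. The log2 change was -1.46, with an SE of 0.247 and a limma adjusted p of 0.0434. The call was lost whichever of the 6 arrays was left out (limma adjusted p from 0.0761 to 0.218), while the log2 change stayed between -1.69 and -1.32. In this bulk RNA, fewer cells that express a gene and less of its RNA per cell cannot be told apart.

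The other mitochondrial sirtuins lay on the opposite side without passing. Sirt3, a deacetylase, was at 147, 137 and 113 on ES and at 174, 213 and 250.3 on fPS arrays, a log2 change of 0.62 (SE 0.220, limma adjusted p = 0.226). Sirt4 was at 39.9, 33.8 and 23.9 on ES and at 65.5, 71.9 and 49.8 on fPS arrays, a log2 change of 0.70 (SE 0.227, limma adjusted p = 0.189), and its other probe set had 0.90. For neither gene did the groups overlap. Sirt6, a nuclear deacetylase of histone H3, was at 206, 188 and 219 on ES and at 135, 134 and 121 on fPS arrays. All 3 fPS values were lower, with a log2 change of -0.60 (SE 0.193, limma adjusted p = 0.188). Sirt2, which is mainly cytoplasmic, had a log2 change of 0.38 without overlap, and the nucleolar Sirt7 one of 0.17 with overlapping groups. Whether Sirt5 differed from Sirt3 and Sirt4 in its change was not tested.

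The classical deacetylases split evenly in sign, with 5 negative and 5 positive changes among 10 and none past the threshold. Hdac5, a class IIa enzyme that shuttles between nucleus and cytoplasm, was at 88.1, 102 and 107 on ES and at 194, 173 and 275 on fPS arrays. Every fPS value was above every ES value, with a log2 change of 0.98 (SE 0.231, limma adjusted p = 0.0924). Its dimmer probe set had a log2 change of 0.28 with overlapping groups. Hdac2, a class I enzyme of the NuRD, Sin3 and CoREST complexes, was at 4013, 3738 and 5477 on ES and at 3223, 2779 and 2696 on fPS arrays. It was lower on each fPS array, with a log2 change of -0.59 (SE 0.225, limma adjusted p = 0.258). Its close relative Hdac1, a partner in the same complexes, was at 952, 917 and 1803 on ES and at 1180.1, 1118 and 1465 on fPS arrays, where ES replicate 3 was highest and the groups overlapped. Its log2 change was 0.097, with a 95% confidence interval from -0.57 to 0.76, and it was negative (-0.31) in its other probe set. Hdac8, of class I, was lower on each fPS array with a log2 change of -0.45. The other 6, Hdac3, Hdac4, Hdac6, Hdac7, Hdac10 and Hdac11, overlapped between groups, with log2 changes from -0.29 to 0.26.

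To show the genes behind the lowest p in each direction, the 250 bases before the transcription start of Sirt5 (GRCr8, chr17:21543057-21543306, minus strand) and Hdac5 (GRCr8, chr10:87688055-87688304, minus strand) are printed 5′ to 3′ from RefSeq's rat assembly, with matches to GGGCGG (the GC box), CCAAT and CACGTG (the E-box) on either strand in capitals. No match overlapped another.
Sirt5: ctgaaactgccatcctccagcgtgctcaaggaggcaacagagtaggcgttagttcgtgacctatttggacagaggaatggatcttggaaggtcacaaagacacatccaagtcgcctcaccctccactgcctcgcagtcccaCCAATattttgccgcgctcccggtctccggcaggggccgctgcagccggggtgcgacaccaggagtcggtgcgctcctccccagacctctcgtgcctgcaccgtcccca
Hdac5: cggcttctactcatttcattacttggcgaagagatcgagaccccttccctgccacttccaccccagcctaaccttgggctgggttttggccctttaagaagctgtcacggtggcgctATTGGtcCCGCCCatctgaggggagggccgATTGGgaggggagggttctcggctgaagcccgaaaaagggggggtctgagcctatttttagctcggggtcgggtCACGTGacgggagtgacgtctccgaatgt
The Sirt5 stretch held 1 CCAAT and 16 CG dinucleotides, and the Hdac5 stretch 4 matches and 15 CG dinucleotides. Such stretches were matched for 78 members by gene identifier, and GGGCGG was present in 52 of them (66.7%), against 54.2% of 11733 genes on the array and 32.4% of all 27457 genes with a promoter in the table. For CCAAT the shares were 41.0%, 35.1% and 34.3%, and for CACGTG 7.69%, 7.82% and 5.79%. The median count of CG dinucleotides was 18, 15 and 6.

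None of the 15 lysine demethylases had an unadjusted limma p under 0.05, against 17.5% of all genes, and their log2 changes ran from -0.52 to 0.41. Groups did not overlap in 1 of the 15, against 22.6% of all genes. Kdm5c, an X-linked demethylase of histone H3, was the 1 member of the family without overlap, at 251, 247 and 331 on ES and at 228, 223 and 229 on fPS arrays (log2 change -0.26). Its dimmer probe sets overlapped, with log2 changes of 0.27 and -0.25. Kdm1a, the LSD1 demethylase of the CoREST complex, was at 881, 819 and 1510.2 on ES and at 1186, 1276 and 764 on fPS arrays. Its log2 change of 0.028 had a 95% confidence interval from -0.67 to 0.72, which leaves changes of that size in either direction possible. Kdm2b, which recruits a form of PRC1 to CpG islands, had a log2 change of 0.061, and Kdm5b, a demethylase of active promoters, one of -0.066. Kdm6b, which removes the Polycomb mark, had 0.25. Kdm3a, which acts on the heterochromatin mark, and Kdm2a had the smallest p of the family, with log2 changes of -0.52 and -0.40 (limma adjusted p = 0.490 and 0.455). For these 6 genes the groups overlapped, and under at least 1 of the 18 alternatives the sign turned for Kdm1a, Kdm2b and Kdm5b. The other 8 also overlapped, with log2 changes from -0.40 to 0.41.

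Among the writers, 17 lysine methyltransferases had a median log2 change of -0.28, with 13 negative and 4 positive values and none past the threshold. Setd4, a protein with the SET domain of this enzyme class, was at 574, 539 and 547 on ES and at 319.9, 209 and 183 on fPS arrays. Its 3 fPS values lay well below the ES values, a log2 change of -1.21 (SE 0.243, limma adjusted p = 0.0616). It passed in 6 of 18 alternatives, among them centred arrays and without fPS replicate 1 (limma adjusted p = 0.0329 and 0.0494, in a range from 0.0198 to 0.264).

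The 3 enzymes that act in turn on 1 lysine of histone H4 did not share a direction. Kmt5a, which places the first methyl group and is needed for cell division, was at 528, 549 and 816 on ES and at 478, 402 and 229.7 on fPS arrays, a log2 change of -0.78 (limma adjusted p = 0.271). Kmt5b and Kmt5c add further methyl groups. Kmt5b was at 50.6, 28.3 and 59.7 on ES and at 12.6, 23.0 and 27.0 on fPS arrays, a log2 change of -0.74 (limma adjusted p = 0.239). Kmt5c was at 99.2, 91.0 and 116 on ES and at 155, 164 and 158 on fPS arrays, a log2 change of 0.57 (limma adjusted p = 0.210). Thus fPS values were lower without overlap for Kmt5a and Kmt5b and higher without overlap for Kmt5c, and the difference between the genes was not tested.

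Among the remaining methyltransferases none had an unadjusted limma p under 0.05. Kmt2b, a writer of the mark of active promoters, Setd3, which methylates actin rather than histones, and Setd6 were lower on each fPS array, with log2 changes of -0.47, -0.45 and -0.55. For Setd6 the groups almost touched, at 263 on ES replicate 1 and 262 on fPS replicate 1. ES replicate 3 was at 497 for this gene, and without single arrays its log2 change ran from -0.71 to -0.28. Kmt2d, an enhancer methyltransferase, had a log2 change of -0.061, Kmt2a, the founding member of its family, one of 0.062 and Setdb1, which silences retroviral elements in ES cells, one of -0.10. For these 3 the groups overlapped. Setd1b had a log2 change of -0.92 with the largest SE of the members, 0.469, since its fPS values of 490, 282 and 113 were spread widely. The other 6 overlapped, with log2 changes from -0.45 to 0.31. Among them Kmt2e, a relative of Kmt2a, had a negative change in all 5 of its probe sets, from -0.28 in the brightest to -1.37 in the dimmest (limma adjusted p = 0.0587).

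PRC2, the writer of the Polycomb mark, was measured in all of its 4 listed subunits. Ezh1, 1 of its 2 alternative catalytic subunits, was at 503, 599 and 833 on ES and at 931, 1303 and 836 on fPS arrays. The lowest fPS value was only just above the highest ES value, and the log2 change was 0.66 (SE 0.267, limma adjusted p = 0.283), with 0.52 in its other probe set. Ezh2, the catalytic subunit of dividing cells, was at 317, 284 and 399.8 on ES and at 343, 354 and 247 on fPS arrays, a log2 change of -0.083 with a 95% confidence interval from -0.62 to 0.45. Eed, which binds the mark itself, was at 906, 765 and 1092 on ES and at 717, 601 and 557 on fPS arrays, lower without overlap (log2 change -0.54, limma adjusted p = 0.291). Suz12, the scaffold, overlapped with a log2 change of -0.41.

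Of 7 acetyltransferases, 6 had a negative and 1 a positive change. Kat6a, which acetylates histone H3, was at 379, 249.98 and 377 on ES and at 209.8, 155 and 157 on fPS arrays, lower on each (log2 change -0.87, SE 0.243, limma adjusted p = 0.137). Of its 2 dimmer probe sets, 1 had -0.67 and the other, between 1.89 and 14.0 on all arrays, 0.20. Kat14, a subunit of the ATAC acetyltransferase complex, was at 609, 809 and 582 on ES and at 1189.6, 1172 and 1062 on fPS arrays, higher on each (log2 change 0.78, SE 0.214, limma adjusted p = 0.134). Its other probe set overlapped, with 0.20. Kat2a and Kat2b, the alternative catalytic subunits of SAGA and ATAC, had log2 changes of -0.043 and -0.092, and Kat5, the catalytic subunit of TIP60, -0.41. Kat6b and Kat7 had -0.43 and -0.026, and in these 5 genes the groups overlapped.

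Among 7 arginine methyltransferases the log2 change was negative in 6, and the median was -0.40. Prmt9, which modifies a splicing factor, was at 322, 316 and 369 on ES and at 253, 219 and 168 on fPS arrays (log2 change -0.63, SE 0.220, limma adjusted p = 0.215). Prmt5, the main enzyme of symmetric arginine methylation, was at 1327, 1352 and 1344 on ES and at 1245, 1307 and 1104 on fPS arrays. It was lower on each fPS array by little (log2 change -0.14). Prmt3, a ribosomal protein methyltransferase, and Prmt6 were also lower without overlap, with -0.51 and -0.40. For Prmt6 the groups almost touched, at 67.0 on ES replicate 2 and 66.3 on fPS replicate 3. Prmt7 had 0.50, and Prmt2 and Prmt8 had -0.42 and -0.12, all with overlap.

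**Figure D4:**
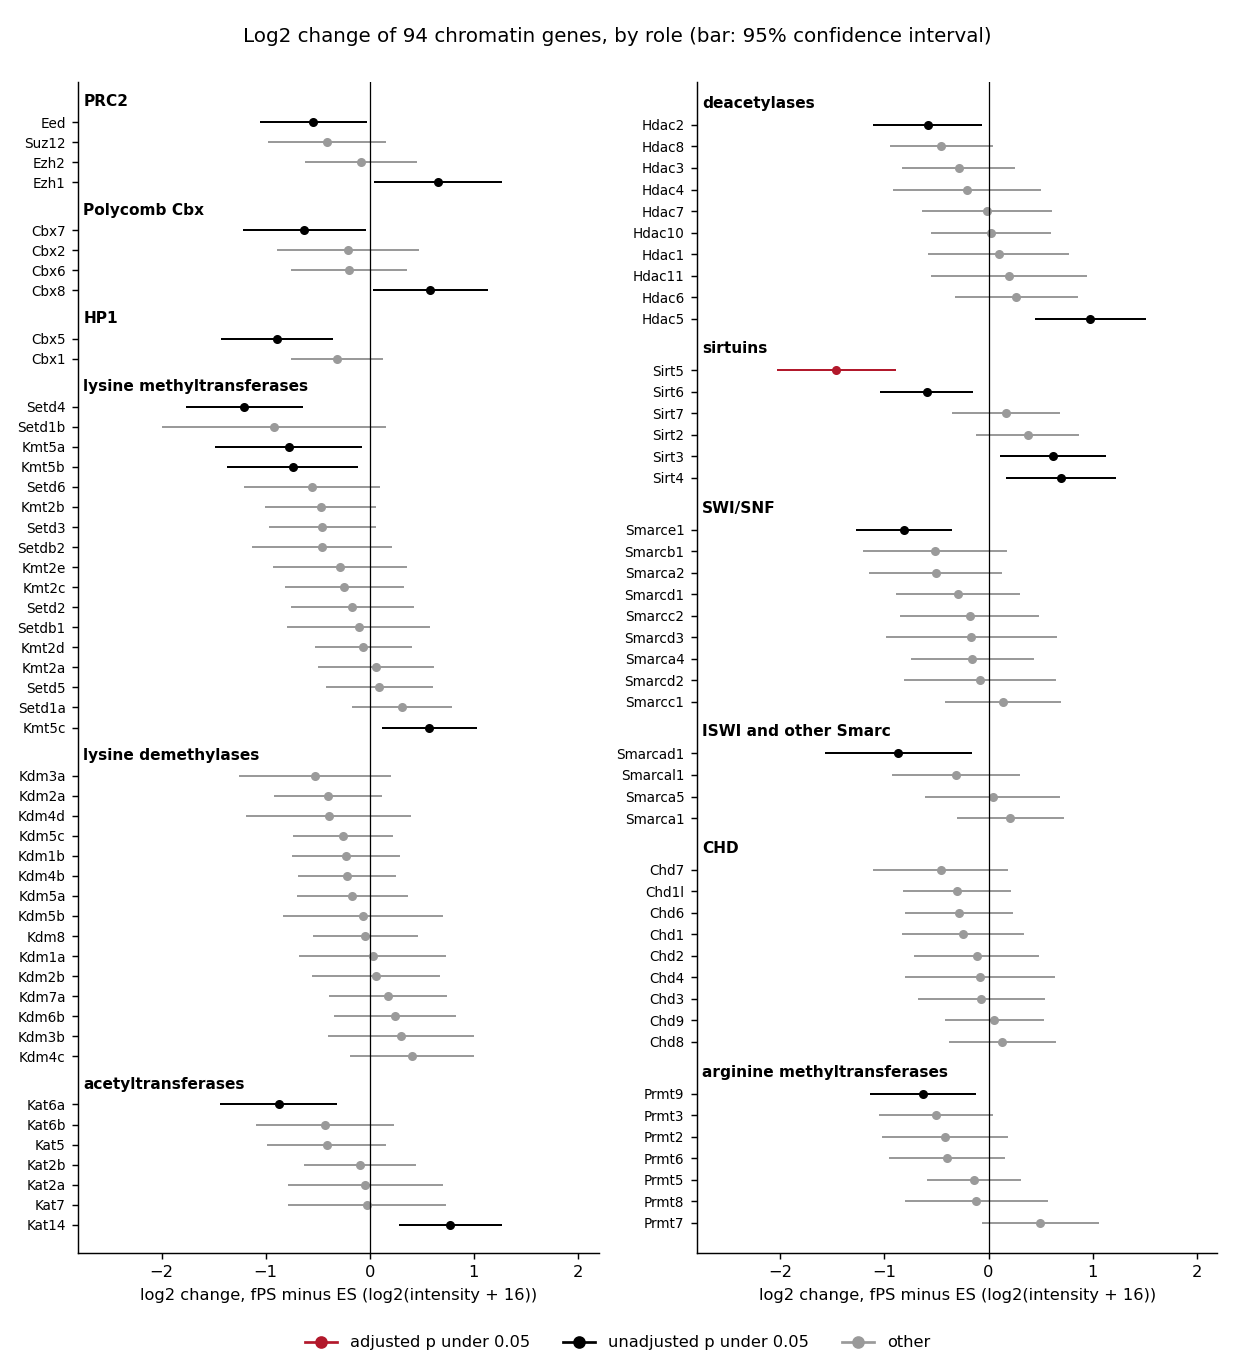
Log2 change (fPS minus ES) of each of the 94 members by role, with its 95% confidence interval from limma; red marks an adjusted p under 0.05, black an unadjusted p under 0.05 and grey the others. Sirt5, at -1.46, is the 1 red point, and the intervals of 74 members cross 0.

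The readers include 2 measured HP1 proteins, which bind the methylated histone H3 of heterochromatin, and both were lower on every fPS array. Cbx5 (HP1α) was at 274, 311 and 325 on ES and at 191, 169 and 116 on fPS arrays, a log2 change of -0.89 (SE 0.233, limma adjusted p = 0.117). Cbx1 (HP1β) was at 1971, 2075 and 2035 on ES and at 1626, 1744 and 1521 on fPS arrays, a log2 change of -0.31 (limma adjusted p = 0.493). Its 2 dimmer probe sets had -0.81 and -0.94. In the latter the groups overlapped, and ES replicate 3 was at 547, against 162 and 98.4 on the other ES arrays. On the probe sets used, ES replicate 3 was close to the other ES arrays for both genes.

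Of the Polycomb Cbx proteins, which bring PRC1 to the mark of PRC2, Cbx7 is the main one of mouse ES cells, and others take its place as they differentiate. Cbx7 was at 222, 164 and 211 on ES and at 145, 146 and 84.7 on fPS arrays, lower without overlap (log2 change -0.63, SE 0.256, limma adjusted p = 0.288). Cbx8 was at 39.8, 22.8 and 24.8 on ES and at 65.8, 46.6 and 42.0 on fPS arrays, higher without overlap (log2 change 0.58, SE 0.240, limma adjusted p = 0.290). Cbx2 and Cbx6 overlapped, with log2 changes of -0.21 and -0.20.

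Among the remodellers, 8 of 9 SWI/SNF genes had a negative change, with a median of -0.18, close to the -0.17 of all 94 members. Smarce1 (BAF57), a DNA-binding subunit, was at 1036, 1051 and 1077 on ES and at 681, 540.0 and 564 on fPS arrays. The ES values were close together and all above the fPS values, a log2 change of -0.82 (SE 0.199, limma adjusted p = 0.0975). Its other 2 probe sets had -0.18 and -0.41. Smarca4 (BRG1), the ATPase of the ES cell complex, was at 706, 628 and 1036 on ES and at 771, 770.0 and 558 on fPS arrays. The groups overlapped, ES replicate 3 was highest, and the log2 change of -0.15 became 0.054 without it. Smarca2 (BRM), the alternative ATPase of differentiated cells, had -0.51 in the probe set used, with overlap, and -1.12 in 1 of its other 2 (limma adjusted p = 0.0672). Smarcc1, the core subunit preferred in ES cells, had 0.14, and Smarcd3, a subunit of heart and nerve cells, was dim, between 4.63 and 36.2 on all arrays (log2 change -0.16). The core subunit Smarcb1 had -0.51, and Smarcc2, Smarcd1 and Smarcd2 ranged from -0.30 to -0.080, all with overlap.

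Smarcad1, a remodeller that restores heterochromatin after replication, was at 346, 267 and 450.1 on ES and at 261, 191 and 121 on fPS arrays, a log2 change of -0.87 (SE 0.307, limma adjusted p = 0.221). The lowest ES and highest fPS values almost touched, and of its other 2 probe sets 1 had the opposite sign (0.23). Smarca5, the ATPase of ISWI complexes, had a log2 change of 0.038, which was negative in its other 2 probe sets (-0.59 and -0.26). The probe set at -0.59 was lower on each fPS array (limma adjusted p = 0.308). It was at 955, 974 and 1472 on ES and at 878, 622 and 726 on fPS arrays. Smarcal1, which reanneals DNA at stalled replication forks, had -0.31, and Smarca1, dim at 3.62 to 13.4, 0.21, both with overlap.

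None of the 9 CHD remodellers had an unadjusted limma p under 0.05, against 17.5% of all genes, and the log2 changes ran from -0.46 to 0.13. Chd1, which keeps ES cell chromatin open, was at 394, 277 and 519.9 on ES and at 341, 321 and 308 on fPS arrays (log2 change -0.24). Chd4, the ATPase of NuRD, was at 487, 403 and 856 on ES and at 638, 554 and 401 on fPS arrays (log2 change -0.080, and 0.23 without ES replicate 3). In both the ES arrays spanned the fPS arrays or nearly so. Chd7, which binds enhancers, had the most negative value of the family, -0.46 with overlap, and Chd1l, a remodeller of DNA repair, was lower on each fPS array with -0.30. The other 5 overlapped, from -0.29 to 0.13, but 1 of the dimmer probe sets of Chd6 was higher on each fPS array (log2 change 1.01, limma adjusted p = 0.104).

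**Figure D5:**
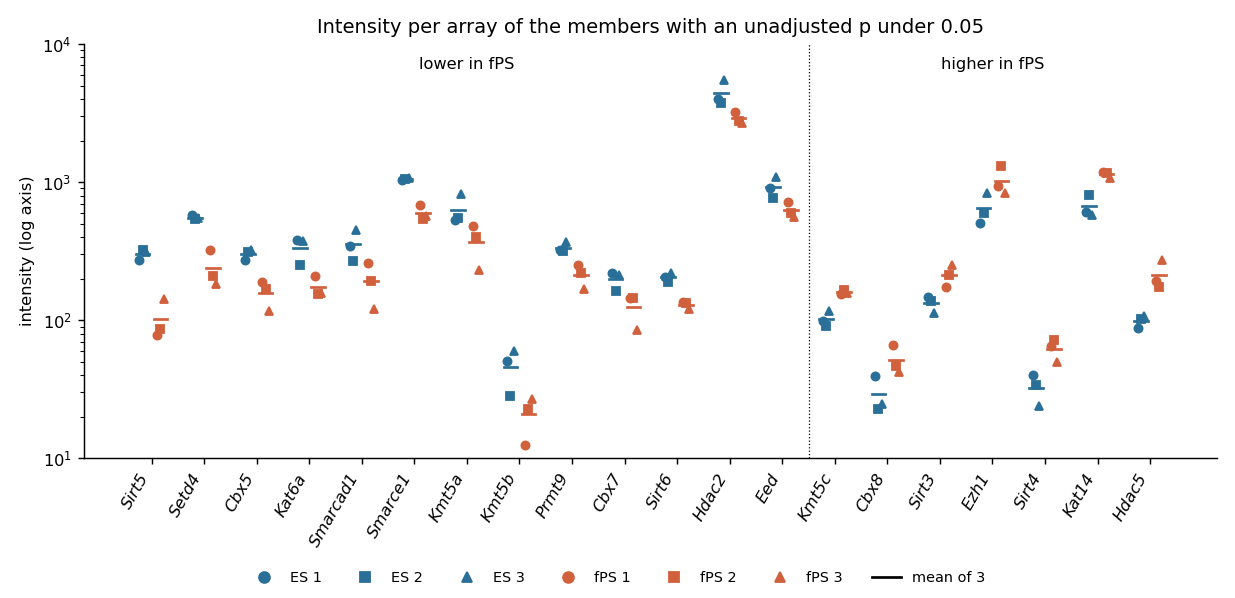
Intensity on each array (log axis) of the 20 members with an unadjusted limma p under 0.05, ordered by log2 change, with lines at the mean of 3 arrays; 13 were lower and 7 higher in fPS cells. The 3 Sirt5 values on fPS arrays, 78.0 to 142, lie below the ES values of 275 to 322.

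Partners of these enzymes that the symbol rule leaves out were looked at in the same way. Of 89 such genes 81 were measured, 0 passed limma over all probe sets, and 11 had an unadjusted limma p under 0.05, 5 lower and 6 higher (13.6% in all, against 17.5% of all genes). Their median log2 change was -0.14, and 52 of 81 were negative, beside 50.0% of all genes. Mbd2, the methyl-CpG binding subunit of NuRD, was at 327, 198 and 354 on ES and at 124, 53.6 and 98.2 on fPS arrays, a log2 change of -1.54 (SE 0.323, limma adjusted p = 0.0708). Mtf2, a PRC2 partner that binds CpG islands, was at 1162, 1389 and 1652 on ES and at 2232, 3030.1 and 2955 on fPS arrays, a log2 change of 0.96 (SE 0.231, limma adjusted p = 0.0950). For both genes the groups were well apart. Of 18 measured Polycomb partners, 3 had an unadjusted limma p under 0.05, near the 17.5% of all genes. These 3, Mtf2, Pcgf5 and Phc3, were higher in fPS cells. As a group the 18 did not rise, with 9 negative changes and a median of -0.090. The partners named here were picked for their small p. All 7 COMPASS subunits, the partners of the Kmt2 enzymes, had negative changes with none at an unadjusted limma p under 0.05. In all 7 the groups overlapped. ES replicate 3 was the highest ES array for Ash2l, Men1, Paxip1, Rbbp5 and Wdr5, and the lowest for Cxxc1 and Dpy30. Wdr5, for example, was at 2347, 2538 and 3941 on ES and at 2349, 2578 and 2281 on fPS arrays.

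Further probe sets gave a mixed check. Of 40 members with several probe sets, 23 had the same sign in all of them and 17 did not. Sirt5, Setd4, Cbx5, Cbx7, Cbx8, Eed, Hdac2, Prmt9, Sirt3, Sirt6 and the 3 Kmt5 genes had a single probe set, so no second measurement on these arrays bears on them. No detection calls were at hand, and 91 of 94 members lay above the dimmest 30% of probe sets and 84 above the dimmest 50%. Of the 20 members at an unadjusted limma p under 0.05, all 20 kept their sign in each of 18 alternatives. Whichever array was left out, 8 of them kept an unadjusted limma p under 0.05: Sirt5, Setd4, Cbx5, Kat6a, Smarce1 and Sirt6, lower, and Hdac5 and Kat14, higher. These were selected in the fit of all arrays, which each of those fits partly reuses. How many of all genes would keep their sign or their p in the same way was not counted, so neither count sets the members apart.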

How the data were processed

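The authors deposited a table of intensities on a linear scale (judged from the range of values), with a column for each array. How the authors summarised probes, corrected background and scaled arrays is not given in the sources used here. Biotin-labelled cRNA was made from total RNA, per the labels' protocols. Of 31099 probe sets, 57 controls were left out. Symbols came from the platform's annotation: 20826 probe sets had 1, 436 several and 9780 none. Those with several were given no name, and 4 of them include a symbol that matches the rule. Cbx3, Kdm6a and Sirt1 had no probe set of their own and were not analysed here.

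Values were tested as log2(intensity + 16) with limma 3.58.1 in R 4.3.3 (lmFit, eBayes) over all 31042 probe sets, without a filter. The fit was checked on simulated data. Intensities are given as mean ± SD, and figures were drawn with matplotlib 3.10.9. The number of arrays limits precision. Members and lists were chosen with earlier results of these data known. Genes were named if they passed, if they had 1 of the 2 smallest p or the highest mean of their role group, or from a fixed list of 25, and others to account for each group. The 18 alternatives concern scaling, dim or unspecific probe sets, pseudocount, eBayes settings, block, probe set choice, collagen covariate and left-out arrays.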

Additional observations from a re-analysis of the deposited data

How the results depend on the processing

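Of the 94 members, the number past the threshold was 1 as reported, 0 with quantile normalization, pseudocounts of 1 or 64, the replicate block, the collagen covariate or without the highest-collagen array of either group, 2 with centred arrays, trend and robust settings, the mean over probe sets or the dimmest 30% left out, and 3 with the dimmest 50% left out (Hdac5, Setd4 and Sirt5). Without single arrays it was 0 to 1. Over all 14217 genes 122 passed as reported, 181 with quantile normalization and 64 with the block. Pseudocounts of 1 and 64 gave 0 and 26. The collagen covariate gave 62, centred arrays 203, trend and robust settings 358 and the mean over probe sets 300. None passed without the highest-collagen arrays, and 0 to 93 without single arrays. Without the dimmest 30%, 416 of 11383 genes and 2 of 91 members passed. Without the dimmest 50% it was 506 of 9101 genes and 3 of 84 members. Sirt5 passed in 6 of 18 alternatives (limma adjusted p from 0.00854 to 0.218, 0.0630 with the replicate block). The members at an unadjusted limma p under 0.05 were 12 with a pseudocount of 1 (12.8%, against 12.9% of all genes), 27 with one of 64 (28.7%, against 19.6%), and 13 to 24 without single arrays (13.8% to 25.5%, against 11.4% to 18.5%). Groups did not overlap in 53 of 94 members without the highest-collagen arrays and in 42 of 94 without ES replicate 3, an alternative chosen after seeing the data. Over all genes the shares were 50.4% and 36.1%. In each case 25 members were lower (26.6%), against 19.3% and 16.2% of all genes, and 28 and 17 were higher, against 31.2% and 19.9%. Partner genes past the threshold numbered 1 with centred arrays, the mean over probe sets or the dimmest 30% left out, and 2 with trend and robust settings or the dimmest 50% left out. The counts over all genes under these settings are given above. Centring moved the median of all genes to -0.060.

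Whether the replicate numbers pair the samples is not known, and the values do not settle it. Deviations of equal numbers correlated weakly, at 0.15, 0.020 and 0.075, and those of unequal numbers at -0.14 to 0.054. ES replicates 1 and 3 correlated best with the fPS replicate of the same number, but ES replicate 2 with fPS replicate 3 (0.054). With the block an unadjusted limma p under 0.05 was found for 19 members (20.2%) and for 16.95% of all genes.

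Of 94 members, 57 kept their sign in every alternative that tested them. The sign turned in at least 1 for 37, none of them past the threshold in any: 22 of the 48 members outside the naming rule, and 15 of the 46 genes it names. For those 15 the values are as follows, and the cause was not tested. With quantile normalization the log2 change was 0.044 for Chd4, 0.027 for Ezh2, 0.052 for Kat2a, 0.039 for Kat2b, 0.028 for Kdm5b, 0.069 for Kmt2d and 0.012 for Setdb1. With centred arrays it was -0.032 for Kdm1a and -0.022 for Smarca5. With the collagen covariate it was -0.0063 for Hdac1, -0.0099 for Kdm1a and -0.015 for Kdm2b. With the mean over probe sets it was -0.11 for Hdac1, 0.029 for Kdm5b, 0.15 for Kmt2d and -0.27 for Smarca5. Without the highest-collagen arrays it was 0.41 for Chd4, 0.21 for Ezh2 and Smarca4, 0.39 for Kat2a, 0.029 for Kmt2d and 0.23 for Setdb1. Without single arrays it ran from -0.30 to 0.23 for Chd4, -0.19 to 0.073 for Ezh2, -0.073 to 0.41 for Hdac1, -0.33 to 0.31 for Kat2a, -0.21 to 0.080 for Kat2b, -0.13 to 0.30 for Kdm1a, -0.14 to 0.28 for Kdm2b, -0.32 to 0.22 for Kdm5b, -0.11 to 0.20 for Kmt2a, -0.35 to 0.22 for Setdb1, -0.30 to 0.054 for Smarca4, -0.11 to 0.33 for Smarca5, -0.0015 to 0.35 for Smarcc1 and -0.38 to 0.25 for Smarcd3.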
